A study of Mus musculus with 12 samples.

Results

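Ribosome biogenesis genes were followed across 12 RNA-seq libraries of mouse LSK cells, the Lin- Sca-1+ c-Kit+ bone marrow fraction that holds hematopoietic stem and early progenitor cells. The set comprised 38 genes taken by symbol, by a rule that reads no measured value, and each of the 38 matched exactly 1 of the 46517 rows of the count matrix. All 38 passed the filter on low counts that left 17842 genes for testing. There were 4 groups of 3 libraries, labelled p300KO_TET2KO (p300 Tet2 Knockout), P300KO (p300 Knockout), TET2KO (Tet2 Knockout) and WT. LSK cells were sorted from mice 8 to 10 weeks old, 2 weeks after poly(I:C), which all groups received. The floxed Ep300 alleles are deleted by Mx1-Cre, an interferon-inducible Cre that is not confined to LSK cells, whereas the Tet2 allele is a germline knockout. The sources differ on the controls: the series description gives Mx1-Cre to every group, whereas the study's methods describe WT as Ep300 fl/fl and Tet2-/- as Ep300 fl/fl;Tet2-/- animals and mention Mx1-Cre only for the p300-deleted animals. As the methods have it, p300 deletion and the presence of Cre cannot be told apart.

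Ribosomes are assembled in the nucleolus. RNA polymerase I transcribes a long ribosomal RNA precursor, small nucleolar ribonucleoproteins (snoRNPs) guide the chemical modification of that precursor (the box C/D class methylation, the box H/ACA class pseudouridylation), and a long series of assembly factors cuts and folds it into the small and large ribosomal subunits. Many of these factors are textbook targets of Myc, and blood stem cells are known for a low and closely held rate of protein synthesis. The 38 genes fall into 6 roles, and they are described in that order: RNA polymerase I (Polr1a, Polr1b), nucleolar scaffold and regulators (Ncl, Npm1, Nolc1, Mybbp1a, Ddx21), box C/D snoRNP (Fbl, Nop56, Nop58), box H/ACA snoRNP (Dkc1, Gar1, Nhp2, Nop10), small subunit assembly (12 genes) and large subunit assembly (12 genes).

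The expected counts per library summed to between 18773903 and 79573664. LSK surface markers were detected in every library, at unlike levels. Kit lay between 724 and 1056 CPM (counts scaled to a common library size), Cd34 between 706 and 881 CPM and Ly6a, the Sca-1 gene, between 14.7 and 32.8 CPM. Flt3 lay between 199 and 703 CPM, Cd48 between 62.1 and 106 CPM, Procr between 10.9 and 26.2 CPM and Slamf1 between 1.31 and 4.43 CPM. RNA of several mature cell markers was present in every library. Of these, Csf1r lay between 33.4 and 123 CPM, Ly6c2 between 13.4 and 182 CPM, Itgam between 33.8 and 64.9 CPM, Cd79b between 16.97 and 29.4 CPM, and Klrb1c between 0.857 and 3.63 CPM, while Cd3e reached at most 0.0553 CPM and was at 0 in 5 libraries. Ep300 RNA was lower in both p300-deleted groups (166 to 179 CPM in p300KO_TET2KO and 176 to 233 CPM in P300KO, against 285 to 339.7 CPM in WT). Tet2 RNA was 101 to 145 CPM in p300KO_TET2KO, 38.6 to 56.6 CPM in TET2KO and 119.9 to 139 CPM in WT, so the libraries labelled p300KO_TET2KO held Tet2 RNA at the WT level, which goes against their label. Every direction given below for that group is therefore a direction for the libraries labelled p300KO_TET2KO. TET2KO replicate 1 held both Xist RNA (3371 CPM) and RNA of Y-linked genes (182 CPM summed), whereas each other library held only the one or the other at such levels. It stands apart for the present genes as well, so values without it are given beside the main results of the comparisons that use TET2KO. The 3 WT libraries held Y-linked RNA and little Xist RNA (1.51 to 2.86 CPM), whereas every knockout group had at least 1 library with Xist RNA at 3371 CPM or more, so sex was not balanced between WT and the knockout groups.

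Measured per length, as mean CPM over the 12 libraries per kilobase of annotated exon, the nucleolar scaffold proteins stood highest. Npm1, which encodes the histone and ribosomal protein chaperone nucleophosmin, had 332 CPM per kb, and Ncl, which encodes nucleolin, had 129 CPM per kb. The highest member of each other role was Nop56 (77.9 CPM per kb), a core protein of box C/D snoRNPs, Nop10 (53.9 CPM per kb), the smallest box H/ACA protein, Ddx18 (33.9 CPM per kb), a helicase of large subunit assembly, Wdr43 (31.7 CPM per kb), a small subunit processome component, and Polr1b (17.0 CPM per kb), the second-largest subunit of RNA polymerase I. The lowest was Nle1 at 9.28 CPM per kb, a large subunit assembly factor. Exon lengths are unions over all annotated isoforms, so genes with long rare isoforms, such as Ncl with 10188 bp, are placed too low on this scale. Reads of Npm1 may also be split with near-identical processed copies, so its level is uncertain.

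**Figure D1:**
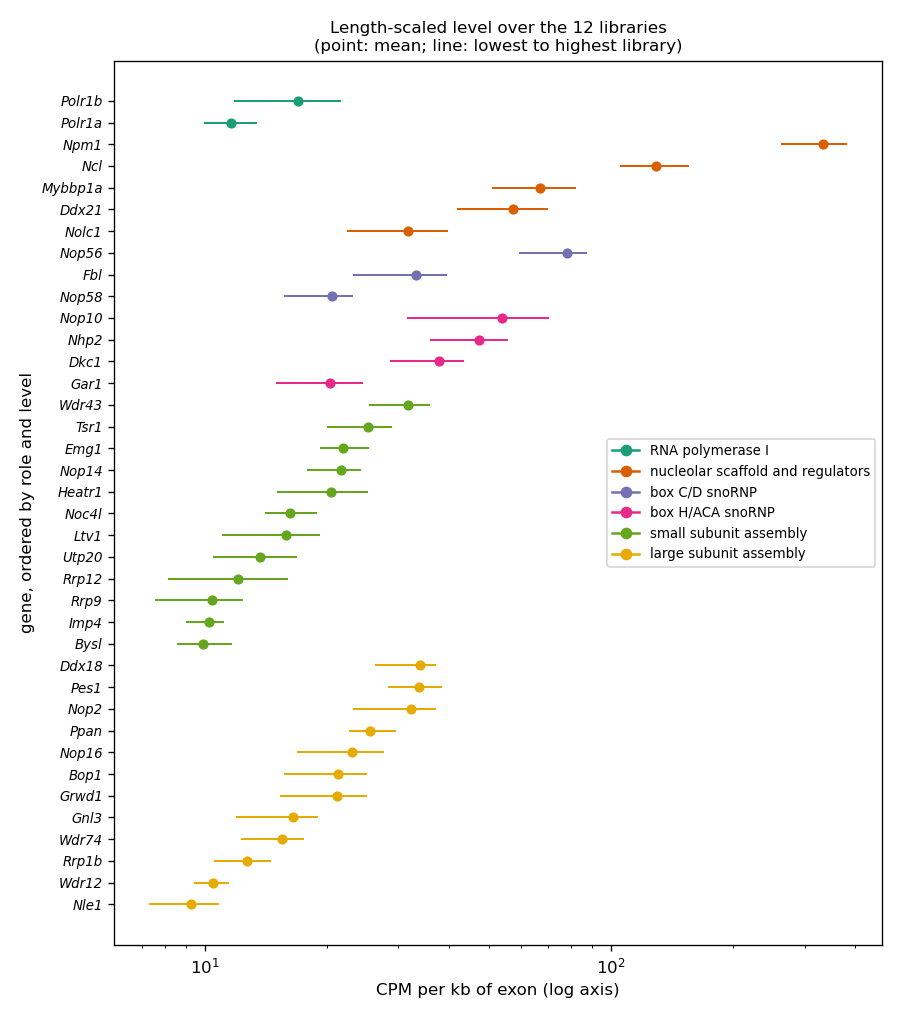
Mean level of each gene over the 12 libraries (point) and the span from its lowest to its highest library (line), in CPM per kb of exon on a log axis, coloured by role. Npm1 and Ncl lie above all other genes, at 332 and 129 CPM per kb, and Nle1 is lowest at 9.28 CPM per kb.

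Levels of the 38 genes moved over a narrow range. The highest library exceeded the lowest by 1.23 times for Wdr12, a member of the Pes1-Bop1-Wdr12 complex, and by 1.24 times for the small subunit factor Imp4. The widest spans were those of Nop10 (2.23 times), the small subunit factor Rrp12 (1.98 times) and Polr1b (1.83 times). These 3 genes are described first.

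Polr1b (ENSMUSG00000027395.14, mm10 chr2:129100995-129126594, plus strand, protein coding) had 102, 82.8 and 90.2 CPM in the 3 p300KO_TET2KO libraries, 112, 112 and 104 CPM in P300KO, 68.7, 89.0 and 72.8 CPM in TET2KO, and 126, 119 and 103 CPM in WT. All TET2KO libraries lay below all WT libraries, and the p300KO_TET2KO libraries lay below both the P300KO and the WT libraries. Polr1b fell in TET2KO against WT, with a log2 fold change of -0.60 ± 0.11 (SE; edgeR quasi-likelihood test, adjusted p = 0.0345), and it was the only one of the 38 genes to pass the test in any of 6 comparisons. Without TET2KO replicate 1 the log2 fold change was -0.52, with an adjusted p of 0.164, and over 19 alternative settings the adjusted p lay between 0.000377 and 0.207, under 0.05 in 10. The call was also lost without TET2KO replicate 3 (adjusted p = 0.114), WT replicate 1 (0.207) or WT replicate 2 (0.162), and without libraries of groups outside the comparison, p300KO_TET2KO replicate 3 (0.0626), P300KO replicate 2 (0.0572) or P300KO replicate 3 (0.0608), all by edgeR. It was lost too in the fit of only the groups compared (0.117) and with a sex covariate (0.0678), where the log2 fold changes were -0.60 and -0.58. In p300KO_TET2KO against WT the log2 fold change was -0.34 ± 0.11 (edgeR, adjusted p = 0.0900).

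Nop10 (ENSMUSG00000027133.3, mm10 chr2:112261926-112263269, plus strand, protein coding) showed a like order of groups. It had 62.0, 34.9 and 56.6 CPM in p300KO_TET2KO, 65.0, 78.0 and 62.5 CPM in P300KO, 42.3, 52.9 and 54.8 CPM in TET2KO, and 76.2, 63.5 and 68.2 CPM in WT. Both groups labelled as Tet2 knockouts lay below both P300KO and WT without overlap, and p300KO_TET2KO replicate 2 was the lowest library. The log2 fold change was -0.47 ± 0.18 in TET2KO against WT (edgeR, adjusted p = 0.303), or -0.37 without TET2KO replicate 1, and -0.44 ± 0.18 in p300KO_TET2KO against WT (adjusted p = 0.182). Without p300KO_TET2KO replicate 2, which also had the lowest mitochondrial share of any library (0.503% of counts, against 1.18% to 1.53% in the others), the log2 fold change against WT was -0.23.

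Rrp12 (ENSMUSG00000035049.3, mm10 chr19:41862851-41896173, minus strand, protein coding) encodes a HEAT-repeat protein that is needed, in yeast, for export of pre-ribosomal subunits. It had 60.3, 57.7 and 46.5 CPM in p300KO_TET2KO, 51.3, 46.8 and 53.5 CPM in P300KO, 35.2, 43.0 and 50.8 CPM in TET2KO, and 69.7, 59.2 and 53.6 CPM in WT. The P300KO and the TET2KO libraries each lay below the WT libraries, while the p300KO_TET2KO libraries overlapped all other groups. The log2 fold change in TET2KO against WT was -0.51 ± 0.14, which did not pass edgeR's test (adjusted p = 0.156) and did pass DESeq2's (adjusted p = 0.0396). Without TET2KO replicate 1 it was -0.38.

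**Figure D2:**
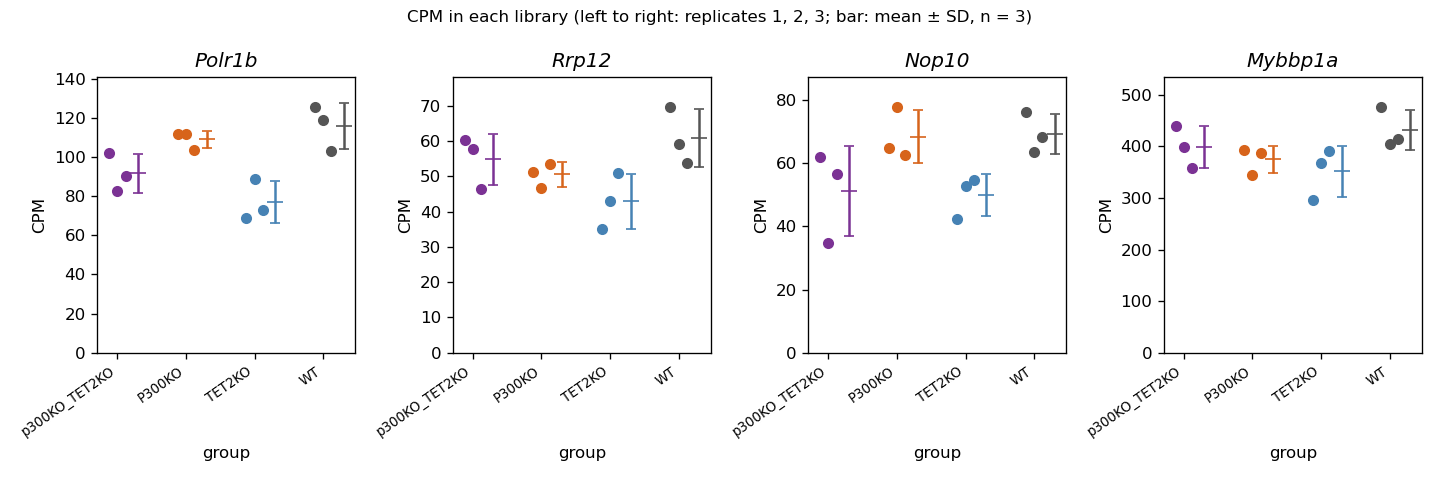
CPM of Polr1b, Rrp12, Nop10 and Mybbp1a in each of the 12 libraries (points, replicates 1 to 3 from left to right) with the mean and SD of each group (bar). For Polr1b the TET2KO libraries (68.7 to 89.0 CPM) lie below all WT libraries (103 to 126 CPM), and for Nop10 p300KO_TET2KO replicate 2 is lowest at 34.9 CPM.

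The promoter sequences of Polr1b and Nop10 are shown because these genes had the lowest fold changes in p300KO_TET2KO against WT, and both lie on chromosome 2. The 250 bases before each start site are given 5′ to 3′ from RefSeq (GRCm38.p6), in lower case, with matches to the motif ACTACA, any 2 bases, TCCC in capitals. The Polr1b window is chr2:129100746-129100995 and the Nop10 window is chr2:112261676-112261925, both on the plus strand.
Polr1b: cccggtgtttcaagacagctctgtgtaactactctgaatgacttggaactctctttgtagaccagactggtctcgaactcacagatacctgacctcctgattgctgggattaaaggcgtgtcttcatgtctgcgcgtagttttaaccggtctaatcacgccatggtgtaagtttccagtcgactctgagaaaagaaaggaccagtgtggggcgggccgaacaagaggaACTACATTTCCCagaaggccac
Nop10: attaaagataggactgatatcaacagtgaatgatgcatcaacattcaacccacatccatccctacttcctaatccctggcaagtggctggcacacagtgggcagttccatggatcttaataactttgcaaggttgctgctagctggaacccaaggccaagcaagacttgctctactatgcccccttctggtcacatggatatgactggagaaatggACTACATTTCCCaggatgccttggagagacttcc
The capitals begin 22 bases before the Polr1b start and 34 bases before the Nop10 start. This motif was chosen after the values of both genes had been seen, so its presence in both is a description only. Searched on both strands of windows from 250 bases before to 50 bases after the start, it occurred in 4 of the 34 members with a window (Polr1b, Nop10, Nop14 and Nop16), in 0.990% of 101 other ribosome biogenesis genes and in 2.92% of 17492 protein-coding genes. The log2 fold change in TET2KO against WT was -0.16 ± 0.10 for Nop14 and -0.19 ± 0.13 for Nop16, or -0.09 and -0.06 without TET2KO replicate 1. Both were smaller in size than those of Polr1b and Nop10, and whether they differ was not tested. Over all 485 tested genes with the motif the median was -0.03, against -0.02 over 10974 tested genes with a window. Bop1, Fbl, Npm1 and Rrp12 had no window.

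The Myc-Max E-box, CACGTG, was searched in the same windows because ribosome biogenesis genes are known Myc targets. It occurred in 10 of the 34 members with a window (29.4%), in 16.8% of the 101 other pathway genes and in 8.91% of protein-coding genes. Those of Mybbp1a (chr11:72441357-72441376, plus strand), Grwd1 (chr7:45830740-45830765, minus strand), Pes1 (chr11:3963967-3963992, plus strand) and Tsr1 (chr11:74898094-74898119, plus strand) are shown with up to 10 flanking bases, the E-box in capitals, since these genes recur in the comparisons below.
Mybbp1a: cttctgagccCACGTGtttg
Grwd1: gccggagtcgCACGTGtgaaaccgga
Pes1: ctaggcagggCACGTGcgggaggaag
Tsr1: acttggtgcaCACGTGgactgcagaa
These E-boxes begin 41, 35, 3 and 25 bases after the start in that order. The ETS motif CCGGAAGT was found in 26.5% of members, 28.7% of the other pathway genes and 5.69% of protein-coding genes. Of the members, 3 held both the E-box and the ETS motif, and none held the E-box together with this spaced motif. Members with an E-box had a median log2 fold change of -0.22 in TET2KO against WT, and the 24 members with a window but without an E-box had -0.21. Bop1, Fbl, Npm1 and Rrp12, which had no window, are in neither set. The medians were 0.18 with and 0.10 without in p300KO_TET2KO against TET2KO, and 0.29 with and 0.19 without for the interaction, and these differences were not tested. All these medians include TET2KO replicate 1. Without that library the medians of all 38 genes were -0.10, 0.01 and 0.10 in the same order of comparisons. Medians split by E-box were not computed without it. Myc itself averaged 382 ± 7.68 CPM in p300KO_TET2KO, 353 ± 121 CPM in P300KO, 387 ± 62.6 CPM in TET2KO and 419.9 ± 81.2 CPM in WT (SD, n = 3 each), and passed the test in no comparison.

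Averaged over all 38 genes, the level in each library separated the groups only in part. The mean log2 CPM was 6.62 ± 0.14 for p300KO_TET2KO libraries, 6.62 ± 0.06 for P300KO, 6.50 ± 0.20 for TET2KO and 6.73 ± 0.08 for WT (SD, n = 3 each). By library it was 6.77, 6.60 and 6.50 for p300KO_TET2KO, 6.68, 6.56 and 6.63 for P300KO, 6.27, 6.55 and 6.67 for TET2KO, and lastly 6.82, 6.66 and 6.71 for the WT libraries. TET2KO replicate 1 was lowest of all and WT replicate 1 highest, and each knockout group overlapped WT.

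**Figure D3:**
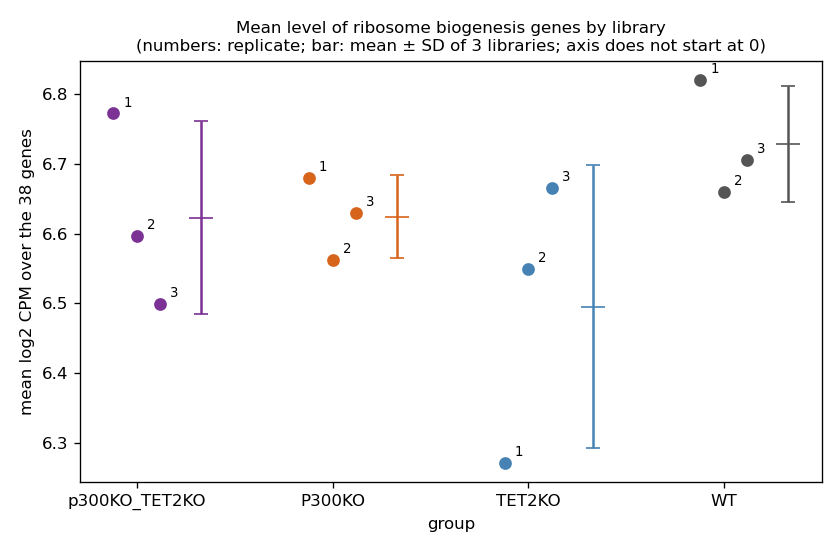
Mean log2 CPM over the 38 genes in each library (points, numbered by replicate) and the mean ± SD of each group (bar). TET2KO replicate 1 is lowest at 6.27, and the other TET2KO libraries, at 6.55 and 6.67, lie within the span of the remaining groups.

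The genes shifted together between libraries of the same group. TET2KO replicate 1 was the lowest of all 12 libraries for 32 of the 38 genes, while it was the lowest for 13.5% of all genes tested, and within its group it was the lowest for 37 of 38 (34.4% of all genes). WT replicate 1 was the highest WT library for 31 of 38 (29.3% of all genes), and p300KO_TET2KO replicate 1 the highest of its group for 29 of 38 (31.0% of all genes). These differences arise among libraries of 1 genotype. The exceptions to the low place of TET2KO replicate 1 were Gar1, Pes1, Wdr12 and Ppan, which were lowest in a P300KO library, Nop10, lowest in p300KO_TET2KO replicate 2, and Nle1, lowest in TET2KO replicate 2.

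**Figure D4:**
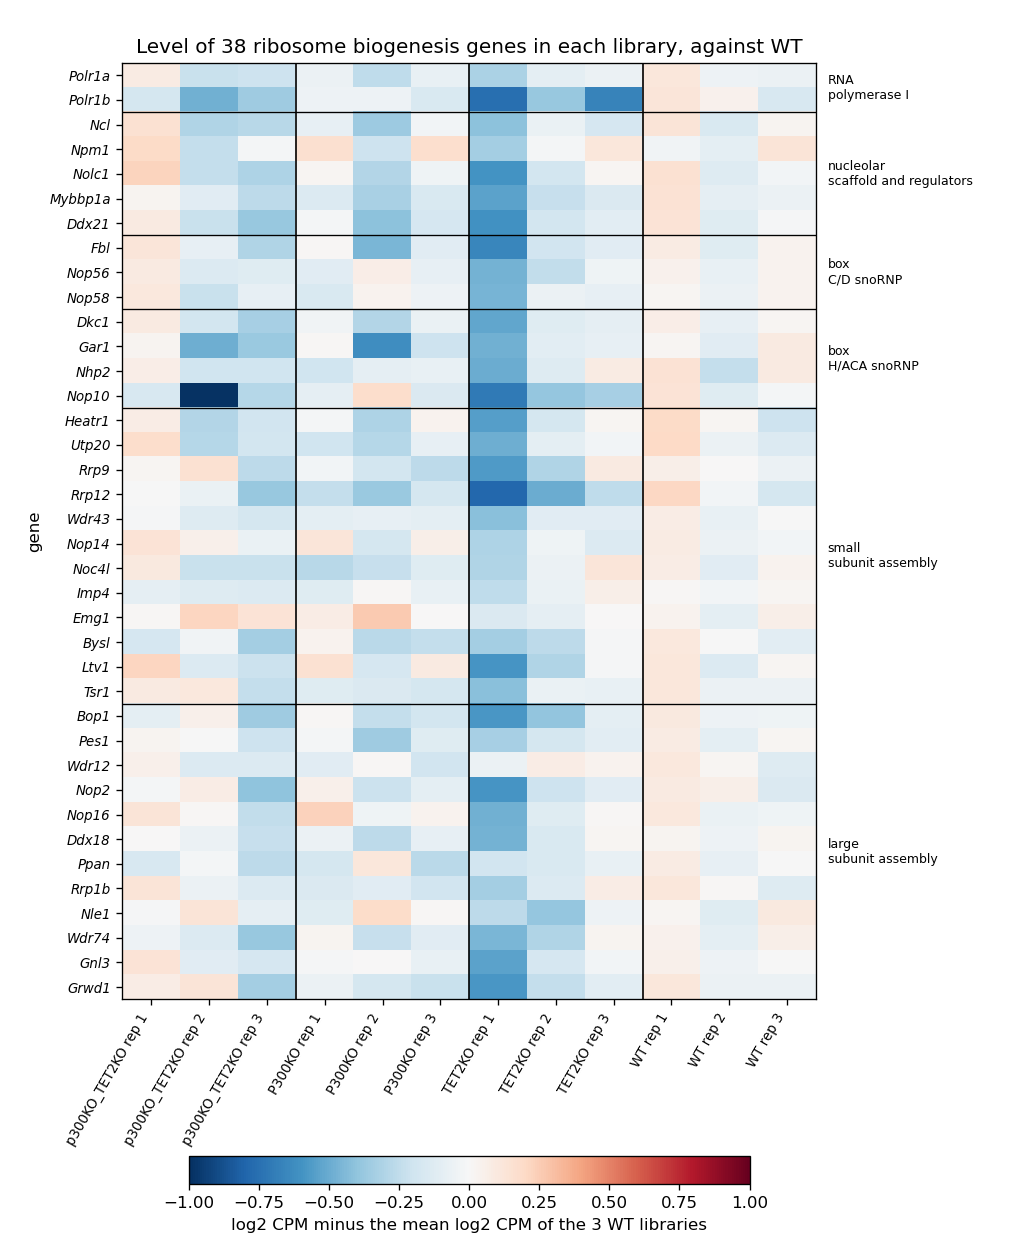
Each row is a gene, grouped by role, and each column a library; colour is the log2 CPM minus the mean of the 3 WT libraries, on a scale that ends at -1 and 1. The column of TET2KO replicate 1 is blue for nearly all genes, which was the lowest library for 32 of 38, and Polr1b is blue in all 3 TET2KO libraries.

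Markers of LSK cells and of other cell types and states also differed between these groups and libraries. Summed over 12 genes, LSK markers lay between 2652 and 3595 CPM over all libraries. Of the 12, edgeR called 2 lower in p300KO_TET2KO against TET2KO (3.90% of all genes were called). In P300KO against WT 1 was higher and 1 lower (3.91%). In p300KO_TET2KO against WT 1 was higher and 2 lower (8.43%), and none was called in the other comparisons. The summed level of 20 cell cycle genes was 4516 to 5879 CPM in p300KO_TET2KO, 4943 to 6154 CPM in P300KO, 4049 to 5690 CPM in TET2KO and 5197 to 5991 CPM in WT, and its lowest library was again TET2KO replicate 1. None of the 20 passed edgeR's test in any comparison. The most with an unadjusted p under 0.05 was 3, all lower, in TET2KO against WT, where DESeq2 called 1. By sign, 17 of 20 were negative in TET2KO against WT (median -0.14, 49.9% of all genes negative) and 17 in p300KO_TET2KO against WT (median -0.09, 46.7% of all genes). In P300KO against WT 9 were negative (median 0.10), and in p300KO_TET2KO against TET2KO 7 (median 0.12). Medians of this list were not computed without TET2KO replicate 1. Summed, 8 lymphoid-primed progenitor genes lay at 256 to 390.0 CPM in p300KO_TET2KO and 441 to 644 CPM in P300KO. They lay at 768 to 1403 CPM in TET2KO and 1563 to 1966 CPM in WT. edgeR called 8 of 8 lower in P300KO against WT and 8 of 8 in p300KO_TET2KO against WT. It called 7 of 8 lower in p300KO_TET2KO against TET2KO, where DESeq2 called 8. All 8 were also negative in TET2KO against WT (median -0.88), where edgeR called 0 and DESeq2 called 1. In p300KO_TET2KO against P300KO all 8 were negative, and edgeR called 1 and DESeq2 4. The summed level of granulocyte and monocyte markers was 98.5 to 126 CPM in p300KO_TET2KO, 104 to 175 CPM in P300KO, 135 to 349 CPM in TET2KO and 82.4 to 117 CPM in WT. Of 6 tested, edgeR called 1 higher in TET2KO against WT, where 5 were positive, and 2 lower in p300KO_TET2KO against TET2KO, where 4 were negative. All 6 were positive in P300KO against WT (median 0.92), where edgeR called 0 and DESeq2 2. All 6 were negative in p300KO_TET2KO against P300KO, where neither called any. The summed level of megakaryocyte markers was 147 to 206 CPM in p300KO_TET2KO, 238 to 294 CPM in P300KO, 126 to 156 CPM in TET2KO and 107 to 129.8 CPM in WT. Of the 5, Itga2b was called higher in P300KO against WT, p300KO_TET2KO against WT and p300KO_TET2KO against TET2KO. Pf4 was called lower in p300KO_TET2KO against P300KO. The list as a whole went otherwise in part: 4 of 5 were negative in p300KO_TET2KO against TET2KO (median -0.31) and 3 of 5 in p300KO_TET2KO against WT (median -0.16). All 5 were positive in P300KO against WT and negative in p300KO_TET2KO against P300KO. Mature B cell markers summed to 22.7 to 33.6 CPM in p300KO_TET2KO, 28.1 to 37.6 CPM in P300KO, 28.3 to 34.2 CPM in TET2KO and 47.0 to 63.9 CPM in WT. edgeR called 3 of 6 lower in p300KO_TET2KO against WT and 1 in P300KO against WT. The other 3 were positive in each of these comparisons, with log2 fold changes up to 3.71 and 1.33. In p300KO_TET2KO against WT edgeR called none of them higher and DESeq2 called 1. Summed markers of erythroid cells lay between 10.2 and 69.0 CPM and those of T and NK cells between 1.65 and 9.35 CPM over all libraries. edgeR called 0 of either list in any comparison; in p300KO_TET2KO against TET2KO 3 of 8 erythroid markers were higher and 1 of 2 tested T and NK markers lower at an unadjusted p under 0.05, of which DESeq2 called 1 each. The part of these markers in the values of the ribosome biogenesis genes was not tested. In such sorted samples, fewer cells of a type and less RNA per cell cannot be told apart.

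The effect of Tet2 knockout with p300 intact was given by TET2KO against WT, in which the genes lay lower almost throughout. Of the 38, 37 had a negative log2 fold change, and the median was -0.21, against a median of 5e-04 and 49.9% negative over all genes tested. Over the 6838 genes in the same range of mean CPM, the median was -0.04 with 60.7% negative. Only 1 of the 38 passed the test, Polr1b, which was lower. The share of all genes called lower was 0.151%, and the share called in either direction was 0.633%. By unadjusted p under 0.05, 7 of 38 were lower and none higher, where 12.9% of all genes passed in either direction, and DESeq2 called 2 of 38 (Polr1b and Rrp12), where it called 2.90% of all genes. The libraries did not overlap, with TET2KO lower, for 11 of 38 genes, where this held for 10.4% of all genes. Without TET2KO replicate 1 the median was -0.10, and 35 of the 37 negative genes remained negative.

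Within roles, the median log2 fold change in TET2KO against WT was -0.38 for the 2 RNA polymerase I genes, -0.24 for the nucleolar regulators, -0.24 for the box C/D genes, -0.22 for the box H/ACA genes, -0.20 for small subunit assembly and -0.22 for large subunit assembly. Without TET2KO replicate 1 these medians were -0.30, -0.12, -0.14, -0.10, -0.09 and -0.12 in the same order. Bop1, the scaffold of the Pes1-Bop1-Wdr12 complex that is needed to process the large subunit RNA, had 46.3, 52.8 and 65.0 CPM in TET2KO, against 74.2, 67.0 and 67.5 CPM in WT. The groups did not overlap, and the log2 fold change was -0.35 ± 0.13 (edgeR, adjusted p = 0.290), or -0.24 without TET2KO replicate 1. Mybbp1a, a nucleolar protein that binds Myb and represses ribosomal RNA synthesis, had 297, 368 and 390.5 CPM in TET2KO, against 477, 405 and 414 CPM in WT, with a log2 fold change of -0.30 ± 0.12 (adjusted p = 0.325), or -0.19 without TET2KO replicate 1. Exons of Bop1 overlap exons of Mroh1 on the other strand, and those of Mybbp1a exons of Spns2. The strand setting of the counting was not given in the sources used here. Such overlaps are also annotated for other members, among them Polr1a, Wdr12, Pes1, Nle1, Tsr1, Rrp1b, Grwd1 and Imp4. None is annotated for Polr1b, Nop10 or Rrp12. Wdr12 was the gene above 0, with 123, 135 and 131 CPM in TET2KO, against 138, 130.3 and 118 CPM in WT (0.01 ± 0.09).

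The effect of p300 deletion with Tet2 intact was given by P300KO against WT. Of the 38 genes, 32 had a negative log2 fold change, with a median of -0.12, against 0.01 and 47.6% negative over all genes. Over the 6838 genes in the same range of mean CPM, the median was -0.01 with 53.7% negative. Every value of the 38 lay between -0.27 and 0.12. Without WT replicate 1 the median was -0.07. None passed edgeR's test, where 3.91% of all genes were called, none had an unadjusted p under 0.05, where 16.2% of all genes did, and none passed DESeq2's, where 6.84% did. The P300KO libraries lay below the WT libraries without overlap for 8 of 38 genes, where this held for 13.2% of all genes. The smallest p-values belonged to Rrp12 (log2 fold change -0.27 ± 0.14, adjusted p = 0.387), with the values by library given above, and to the 3 genes that follow.

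Noc4l, a small subunit assembly factor that pairs with Nop14 in yeast, had 37.2, 38.4 and 41.3 CPM in P300KO, against 47.5, 41.7 and 46.0 CPM in WT (log2 fold change -0.21 ± 0.12, edgeR adjusted p = 0.436). Mybbp1a had 392, 344 and 387 CPM in P300KO, against the WT values given above (-0.21 ± 0.12, adjusted p = 0.443). Pes1, the partner of Bop1, had 108, 85.7 and 101 CPM in P300KO, against 116, 102 and 111 CPM in WT (-0.16 ± 0.10, adjusted p = 0.494). Leaving out 1 library brought Pes1 to -0.08 (without P300KO replicate 2), and Rrp12 to -0.16 and Mybbp1a to -0.13 (both without WT replicate 1). Noc4l and Mybbp1a did not overlap between the groups, whereas Pes1 did. Emg1, a methyltransferase of the small subunit RNA, was the highest of the 38 at 0.12 ± 0.09 (adjusted p = 0.588).

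Loss of p300 on a Tet2 knockout background was given by p300KO_TET2KO against TET2KO, subject to the Tet2 RNA in the libraries labelled p300KO_TET2KO. Here 33 of 38 genes had a positive log2 fold change, with a median of 0.13, against 0.02 and 53.4% positive over all genes. None passed edgeR's test (3.90% of all genes), 3 had an unadjusted p under 0.05 (Rrp12, Emg1 and Polr1b, each higher; 16.5% of all genes in either direction) and none passed DESeq2's test (7.02%). This direction rested on TET2KO replicate 1: without it the median was 0.01, and 18 of 38 genes were negative. Without p300KO_TET2KO replicate 1 the median was 0.05, with 15 negative.

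Rrp12 had the largest of these differences, at 0.35 ± 0.14 (edgeR, adjusted p = 0.230), or 0.23 without TET2KO replicate 1, and its groups overlapped. Emg1 had 99.0, 114 and 108 CPM in p300KO_TET2KO, against 89.0, 92.2 and 98.7 CPM in TET2KO, the one gene of the 4 whose groups did not overlap (0.20 ± 0.09, adjusted p = 0.278, or 0.17 without TET2KO replicate 1). Exons of Emg1 overlap those of Lpcat3 on the other strand. Polr1b differed by 0.25 ± 0.11 (adjusted p = 0.282), or 0.18 without TET2KO replicate 1. Nle1 had 30.6, 33.8 and 29.0 CPM in p300KO_TET2KO, against 25.7, 23.6 and 29.8 CPM in TET2KO (0.24 ± 0.11, adjusted p = 0.312), with overlap. At the other end lay Wdr12 (-0.09 ± 0.09) and Gar1 (-0.05 ± 0.17).

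Both knockouts together were set against WT. In p300KO_TET2KO against WT, 35 of 38 genes had a negative log2 fold change, with a median of -0.10, against 0.02 and 46.7% negative over all genes. Over the 6838 genes in the same range of mean CPM, the median was -0.03 with 57.6% negative. None passed edgeR's test (8.43% of all genes), 2 had an unadjusted p under 0.05 (Polr1b and Nop10, both lower; 20.8% of all genes) and none passed DESeq2's (11.2%). Without p300KO_TET2KO replicate 3 the median was -0.04 and 24 were negative, without WT replicate 1 it was -0.04 with 28 negative, and without p300KO_TET2KO replicate 1 it was -0.15 with 36 negative. After Nop10 and Polr1b, Gar1, a box H/ACA protein, had the next smallest p, with 40.2, 28.2 and 30.5 CPM in p300KO_TET2KO, against 40.1, 36.4 and 42.1 CPM in WT (-0.27 ± 0.17, adjusted p = 0.431). Bysl, a small subunit assembly factor, had 37.1, 40.8 and 32.9 CPM in p300KO_TET2KO, against 45.0, 41.6 and 38.8 CPM in WT (-0.18 ± 0.12, adjusted p = 0.455). Gar1 was at -0.43 without p300KO_TET2KO replicate 1 and at -0.16 without replicate 2, and Bysl at -0.10 without replicate 3. Both genes overlapped between the groups, and exons of Bysl overlap Ccnd3 on the other strand. Emg1 was again highest, at 0.12 ± 0.09.

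Tet2 knockout on a p300-deleted background, p300KO_TET2KO against P300KO, gave values on both sides of 0. The median log2 fold change was 0.01, with 20 of 38 positive, against 0.01 and 51.9% positive over all genes. None passed edgeR's test (0.560% of all genes), 2 had an unadjusted p under 0.05 (Nop10 and Polr1b, both lower; 10.0% of all genes) and none passed DESeq2's (1.97%). Nop10 differed by -0.43 ± 0.18 (adjusted p = 0.454), or -0.21 without p300KO_TET2KO replicate 2, and Polr1b by -0.25 ± 0.11 (adjusted p = 0.483), or -0.18 without that library. Both lay below P300KO in all 3 libraries. Tsr1, a small subunit factor that in yeast holds the place of a translation factor on the immature subunit, had 109, 110.1 and 86.5 CPM in p300KO_TET2KO, against 93.9, 92.5 and 90.7 CPM in P300KO (0.14 ± 0.11, adjusted p = 0.757). Rrp1b, a large subunit assembly factor, had 112, 98.8 and 93.4 CPM in p300KO_TET2KO, against 93.2, 95.2 and 90.2 CPM in P300KO (0.13 ± 0.11, adjusted p = 0.781). Without p300KO_TET2KO replicate 1, Rrp1b differed by 0.05 and Tsr1 by 0.09; Tsr1 was at 0.08 without replicate 2 and at 0.25 without replicate 3. Tsr1 and Rrp1b overlapped between the groups.

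**Figure D5:**
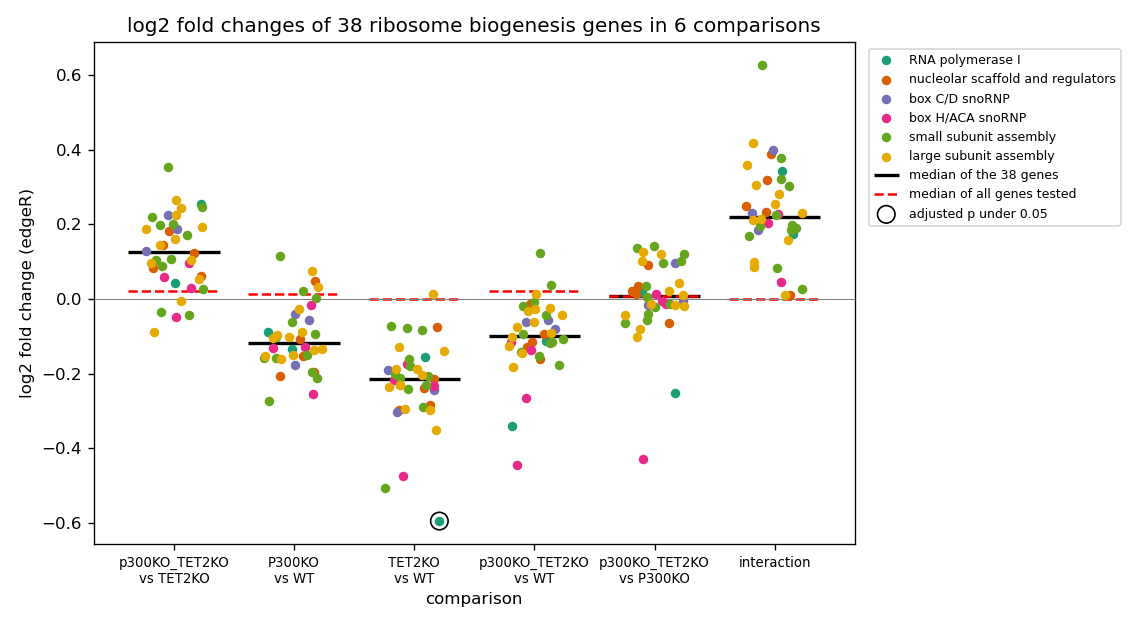
log2 fold change (edgeR) of each of the 38 genes, coloured by role, in the 5 pairwise comparisons and for the interaction, with the median of the 38 genes (black line) and of all 17842 genes tested (red dashed line). Only Polr1b in TET2KO against WT (-0.60, circled) has an adjusted p under 0.05, and the medians of the 38 genes run from -0.21 in TET2KO against WT to 0.22 for the interaction.

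Whether the p300 difference depended on Tet2 status was tested by the interaction, the p300KO_TET2KO against TET2KO difference minus the P300KO against WT difference. All 38 genes had a positive interaction, between 0.01 and 0.63, with a median of 0.22, against a median of 2e-04 and 50.1% positive over all genes. None passed edgeR's test (0% of all genes), 2 had an unadjusted p under 0.05 (Rrp12 and Mybbp1a; 7.11% of all genes) and none passed DESeq2's (0.275%). The interaction was 0.63 ± 0.20 for Rrp12 (adjusted p = 0.586), 0.39 ± 0.17 for Mybbp1a (adjusted p = 0.681), 0.34 ± 0.16 for Polr1b (adjusted p = 0.701) and 0.42 ± 0.20 for Grwd1 (adjusted p = 0.701), a chaperone of a large subunit protein in yeast. Grwd1 had 49.6, 51.6 and 37.2 CPM in p300KO_TET2KO, 45.2, 41.8 and 40.4 CPM in P300KO, 31.5, 40.03 and 43.9 CPM in TET2KO and 51.0, 45.3 and 45.4 CPM in WT. Without TET2KO replicate 1 the median interaction was 0.10 and 5 of 38 genes were negative, with Rrp12 at 0.50, Mybbp1a at 0.28, Polr1b at 0.27 and Grwd1 at 0.29. The comparisons share libraries, so their values for these genes are not independent of each other.

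Wider genes of the same pathway were read beside the 38: 126 further genes of RNA polymerase I, snoRNP assembly, the small and large subunit pathways and the RNA exosome were tested. Their median log2 fold changes were 0.08 in p300KO_TET2KO against TET2KO, -0.05 in P300KO against WT, -0.14 in TET2KO against WT, -0.06 in p300KO_TET2KO against WT, -0.02 in p300KO_TET2KO against P300KO and 0.14 for the interaction. Of the 126, 115 were negative in TET2KO against WT. They had the same sign as the medians of the 38 genes, at smaller size, in all but p300KO_TET2KO against P300KO. Without TET2KO replicate 1 the medians of the 126 were 0.0035 in p300KO_TET2KO against TET2KO, -0.05 in TET2KO against WT, with 93 negative, and 0.06 for the interaction. edgeR called 1 higher in p300KO_TET2KO against TET2KO, 1 lower in p300KO_TET2KO against WT and none elsewhere.

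The gene called lower was Tcof1 (ENSMUSG00000024613.15), which encodes treacle, the nucleolar protein that recruits RNA polymerase I; changes in TCOF1 or POLR1B cause Treacher Collins syndrome in humans. Tcof1 had 167, 152 and 133 CPM in p300KO_TET2KO, 163, 139.8 and 173 CPM in P300KO, 135, 169 and 158 CPM in TET2KO, and 230.0, 208 and 196 CPM in WT. Every library of the 3 knockout groups lay below every WT library. The log2 fold change was -0.49 ± 0.12 in p300KO_TET2KO against WT (edgeR, adjusted p = 0.0210), -0.42 ± 0.12 in P300KO against WT (adjusted p = 0.0697) and -0.45 ± 0.12 in TET2KO against WT (adjusted p = 0.116), or -0.37 without TET2KO replicate 1, and DESeq2 called all 3 (adjusted p = 0.00223, 0.0212 and 0.0185). Over 19 alternatives, the first had an adjusted p under 0.05 in 15; the exceptions left out p300KO_TET2KO replicate 2 (0.0521), p300KO_TET2KO replicate 3 (0.0974), WT replicate 1 (0.0962) or WT replicate 2 (0.0586). The gene called higher was Exosc2, an RNA exosome subunit, with 70.5, 70.4 and 61.3 CPM in p300KO_TET2KO, against 45.4, 54.1 and 55.2 CPM in TET2KO (0.39 ± 0.09, adjusted p = 0.0375), or 0.30 with an adjusted p of 0.128 without TET2KO replicate 1. Its call held in 7 of 19 alternatives and was lost without any of 9 of the 12 libraries, with adjusted p up to 0.128.

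A list of 13 regulators held genes of the Myc-Max network, Myb, Trp53 and Mdm2. Myb, a transcription factor of blood progenitors that is not part of the Myc-Max network, was higher in the p300-deleted groups. It averaged 1011 ± 39.5 CPM in p300KO_TET2KO, 1049 ± 63.7 CPM in P300KO, 756 ± 59.2 CPM in TET2KO and 698 ± 55.2 CPM in WT, and rose in p300KO_TET2KO against WT (log2 fold change 0.54 ± 0.10, edgeR adjusted p = 0.00574), in P300KO against WT (0.59 ± 0.10, adjusted p = 0.00761) and in p300KO_TET2KO against TET2KO (0.42 ± 0.10, adjusted p = 0.0385). Without WT replicate 1 the P300KO value was 0.53 with an adjusted p of 0.0542, and the p300KO_TET2KO against TET2KO call was lost without any of 8 libraries, with an adjusted p of up to 0.141 (without TET2KO replicate 2). Mycl was the one other called, lower in p300KO_TET2KO (2.72, 3.31 and 2.53 CPM) than in TET2KO (9.29, 6.09 and 7.22 CPM), at -1.39 ± 0.26 (adjusted p = 0.0113), or -1.31 with an adjusted p of 0.0556 without p300KO_TET2KO replicate 3. The remaining 11, Myc and Trp53 among them, were called in no comparison by edgeR. DESeq2 called Mxd1, a Myc antagonist, higher in P300KO against WT (adjusted p = 0.0157), with 51.7, 70.8 and 64.3 CPM in P300KO, against 37.6, 44.01 and 50.2 CPM in WT; edgeR gave 0.51 ± 0.14 with an adjusted p of 0.0699.

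Among the 38 genes, 8 carry 23 snoRNA genes between their start and end, on their own strand: Nop56 holds 5, Nop58 holds 4, Ncl, Wdr43 and Gnl3 hold 3 each, Tsr1 and Ppan hold 2 each, and Dkc1 holds 1. Whether these snoRNA genes lie in introns or in annotated exons was not checked. The 8 genes belong to 5 of the 6 roles, all but RNA polymerase I.

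The genes not yet given by library did not pass the test in any comparison. Fbl, the methyltransferase of box C/D snoRNPs, had 166, 145 and 124 CPM in p300KO_TET2KO, 154, 111 and 142 CPM in P300KO, 97.4, 134 and 141 CPM in TET2KO, and 162, 141 and 157 CPM in WT. Nop2, a large subunit RNA methyltransferase, had 64.3, 83.8 and 89.3 CPM in TET2KO, against 103, 100.4 and 87.2 CPM in WT. Ddx21, a nucleolar RNA helicase, had 217, 291 and 307 CPM in TET2KO, against 362, 303 and 327 CPM in WT. All 3 overlapped between TET2KO and WT and were lowest in TET2KO replicate 1, with log2 fold changes of -0.30, -0.29 and -0.29 (edgeR, adjusted p = 0.429, 0.404 and 0.452), or -0.15, -0.16 and -0.15 without that library. Npm1, the most abundant per length, had 1017, 752 and 879 CPM in p300KO_TET2KO, 996, 771 and 999.5 CPM in P300KO, 701, 877 and 961 CPM in TET2KO, and 870.0, 833 and 970.4 CPM in WT, and its fold changes in the 5 pairwise comparisons lay between -0.07 and 0.06. Imp4 was below WT in all 3 p300KO_TET2KO libraries, at 86.4, 84.0 and 83.6 CPM against 92.8, 89.9 and 92.9 CPM in WT, a small difference of -0.12 ± 0.08 (adjusted p = 0.472). Polr1a, the largest subunit of RNA polymerase I and the partner of Polr1b, had 118, 138 and 141 CPM in TET2KO, against 159, 142 and 141 CPM in WT. At -0.16 ± 0.10 (adjusted p = 0.557), or -0.08 without TET2KO replicate 1, its difference was smaller than that of Polr1b, and whether they differ was not tested. The remaining genes, among them Nolc1, Nop58, Dkc1, Nhp2, Heatr1, Utp20, Rrp9, Ltv1, Wdr74, Gnl3 and Ppan, had log2 fold changes in TET2KO against WT between -0.29 (Ltv1) and -0.14 (Ppan), none past the test.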

How the data were processed

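RNA was sequenced from sorted LSK cells of 12 libraries, 3 per group. According to the study's methods, ribosomal RNA was depleted and paired-end reads of 100 bp were aligned to mm10 with STAR 2.6.0c and quantified with RSEM 1.3.0. The deposited values are expected counts per gene, which the authors did not normalize in this table. The strand setting was not given in the sources used here. The study corrected for spike-ins, but the table analysed here holds 0 spike-in rows, so that correction was not made.

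Expected counts were rounded to whole numbers, filtered with filterByExpr (17842 of 46517 genes kept) and scaled by the trimmed mean of M-values (TMM). All 12 libraries entered 1 quasi-likelihood fit in edgeR 4.0.16 (R 4.3.3), with contrasts for 5 pairwise comparisons and the interaction, and Benjamini-Hochberg adjustment over all genes tested at a threshold of 0.05. CPM are counts divided by TMM-scaled library size, and mean log2 CPM uses a prior count of 2. Errors of fold changes are standard errors derived from that fit. DESeq2 1.42.0, other filters and scalings, a sex covariate, a fit of only the groups compared, the replicate number as a block and the removal of each library in turn were the alternatives. The script was tested on simulated data.

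Library totals of 18773903 to 79573664 set the counting precision, and edgeR's common biological variation (BCV) came to 0.203. The study describes the replicates as independent. Exact permutation of 3 against 3 libraries has a smallest p of 0.10, and it was not used for single genes. Replicate numbers recur between groups but did not pair the libraries.

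The genes, lists and motifs were chosen with earlier results of these data known. By library the text gives, per comparison, the genes past the test and otherwise those of smallest unadjusted p up to 4; highest and lowest fold changes, the highest gene per length in each role, and called genes of the other lists were also named. The genes of the last paragraph were added after their values were seen. Gene positions are those of Gencode vM21, and promoter windows those of RefSeq.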

Additional observations from a re-analysis of the deposited data

How the results depend on the processing

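Of the 38 genes, 1 passed the test in TET2KO against WT, while DESeq2 called 2, the fit of only the groups compared 0 and the fit with a sex covariate 0, and leaving out 1 library gave 0 to 1. In the other comparisons the count was 0 under every alternative run. Over all genes, p300KO_TET2KO against TET2KO had 695 calls, with 1252 by DESeq2, 345 in the fit of only the groups compared and 387 to 767 on leaving out 1 library. P300KO against WT had 698, with 1219 by DESeq2 and 244 to 900 on leaving out 1 library. TET2KO against WT had 113, with 497 by DESeq2, 227 without a filter, 58 in the fit of only the groups compared and 36 to 205 on leaving out 1 library. p300KO_TET2KO against WT had 1504, and 872 to 1733 on leaving out 1 library. p300KO_TET2KO against P300KO had 100, with 351 by DESeq2, 155 without a filter and 39 to 148 on leaving out 1 library. The interaction had 0, with 49 by DESeq2, 2 without a filter and 0 to 14 on leaving out 1 library. The cause of these differences was not tested. On leaving out 1 library the median over the 38 genes ran from 0.0072 to 0.20 in p300KO_TET2KO against TET2KO, -0.16 to -0.07 in P300KO against WT, -0.30 to -0.10 in TET2KO against WT, -0.15 to -0.04 in p300KO_TET2KO against WT, -0.06 to 0.06 in p300KO_TET2KO against P300KO and 0.10 to 0.30 for the interaction. In p300KO_TET2KO against P300KO, where it was 0.01, it also changed sign with the sex covariate (-0.02). No gene called in a comparison, or among the 4 members of smallest p there, changed sign in it under any alternative. Other named genes did change sign. Without TET2KO replicate 1, Npm1 went from -0.07 to 0.04 and Noc4l from -0.07 to 0.03 in TET2KO against WT. Values of the roles and of the other lists without TET2KO replicate 1 were added after seeing the data. In the replicate block fit the interaction had 2 calls over all genes and the 38 genes had 1 call in TET2KO against WT, as without the block. Same-numbered libraries correlated between -0.152 and 0.135 over 18 pairs, 4 of them over 0.1, and 5 of 12 libraries correlated best with their own number. With 3 libraries a group, the groups compared overlapped for 27 of 38 genes in TET2KO against WT. In P300KO against WT they overlapped for 30 of 38. All other members lay lower in the knockout group, which held for 10.4% and 13.2% of all genes in that order. This share was not computed for the other comparisons.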
